A study of Mus musculus with 11 samples.

Results

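The genes described here encode lysosomal proteins, the machinery of autophagy, and the transcription factors TFEB, TFE3 and MITF. They were taken by symbol, and all 49 symbols of the set were found among the 24490 genes counted in 11 RNA-seq libraries of mouse granulosa cells. The set holds 21 lysosomal proteins, 25 genes of the autophagy machinery and 3 transcription factors. No expression value enters the rule, but the members were chosen with earlier results of these data known. Of the 49 genes, 48 passed the filter on low counts and were tested. The exception was Ctss (cathepsin S), at 0.0313 to 0.335 CPM, a unit that scales the reads in genes to the same total in each library, over the 11 libraries.

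Lysosomes are acidified by a proton pump, the V-ATPase, and break down proteins, sugars and lipids with cathepsins, glycosidases and lipases. In autophagy, the ULK kinase complex and the class III PI3-kinase complex start a membrane that grows into a vesicle, ATG2 proteins and ATG9A supply its lipids, and an enzyme cascade with ATG7, ATG3 and ATG5 couples LC3 and GABARAP proteins to it before it fuses with a lysosome. TFEB, TFE3 and MITF bind the CLEAR element in promoters of many of these genes, and the kinase AKT is known to phosphorylate TFEB. Granulosa cells surround the oocyte, make steroid hormones and die when a follicle degenerates, a process in which autophagy has been described.

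Primary ovarian granulosa cells of RjOrl:SWISS mice were transfected with 30 pmol of siRNA in Lipofectamine RNAiMax, which was replaced by medium after 5 h, and RNA was taken at 30 h. The scramble group had 3 libraries of cells given a nontargeting siRNA, and each of 4 pools of siRNAs against Akt1 had 2 libraries, so every group carries transfected siRNA. There were 4 Akt1 siRNAs, numbered 6 to 9 by the supplier, and every pool combined 3: siRNA 9 was absent from pool 1, siRNA 7 from pool 2, siRNA 8 from pool 3 and siRNA 6 from pool 4. This rests on matching the pool names of the protocol to those of the titles by number. The sources used here give no age of the mice, no pooling of animals and no siRNA sequences. The design asks which mRNAs depend on AKT1, and whether pools of different composition give the same answer.

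Depth was 23851293 to 32643158 reads in genes. Akt1, the targeted gene, stood at 529, 428 and 399 CPM in scramble. Over the 8 libraries of the pools it ranged from 52.7 to 81.7 CPM, highest in pool 3 (79.3 and 81.7) and lowest by group mean in pool 2 (52.7 and 55.1). Scramble replicate 1 stood apart: the median correlation of its log2 CPM with the other libraries was 0.948, against 0.989 or more for each of the other 10. Comparisons with scramble are therefore given with and without it. Nothing in the labels states that replicates are independent cultures, and the p-values therefore reflect the spread of these libraries alone, which may be technical. In RNA from a whole culture, fewer cells of a type and less RNA per cell cannot be told apart. Of the granulosa markers, Fshr and Amh were under 1 CPM in every library, while the whole list of 10 summed to 3784 to 4145 CPM in scramble and 2407 to 3615 CPM in the pools. Of 9 markers of macrophages, cells rich in lysosomes, 6 (Ptprc, Adgre1, Itgam, C1qa, C1qb and Mrc1) were under 1 CPM in every library, and the list summed to 3.14 to 4.72 CPM in scramble and 3.32 to 8.62 CPM in the pools. The part of these cell types in the comparisons with scramble was not tested.

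The promoters were searched for the letters bound by TFEB and its relatives, because these factors are known for lysosomal and autophagy genes alike. RefSeq windows of 300 bases (250 before and 50 after the start, build GRCm38.p6) were found for 40 of the 49 genes. The core of the CLEAR element, GTCACGTG or its reverse complement CACGTGAC, was present in 7 of 18 lysosomal genes (38.9%) and 3 of 19 autophagy genes (15.8%), against 2.55% of the 27025 genes in the table. The shorter E-box CACGTG, which is contained in these letters and reads the same on both strands, was present in 9 of 18 (50%) and 4 of 19 (21.1%), against 8.09%. Neither was found in the windows of the 3 transcription factor genes. The 10 genes with the longer match are shown, each read in the direction of its gene, as 30 bases around the match nearest to the start, with the matching letters in capitals.
Ctsa (chr2:164833767-164833796, + strand): atgcagatgctCACGTGACcagagctacac
Ctsd (chr7:142387907-142387936, - strand): cgcccgcgtctCACGTGACccgttgagggc
Lamp1 (chr8:13159122-13159151, + strand): atgccgactggCACGTGACcacatcacgtg
Mcoln1 (chr8:3500463-3500492, + strand): ggcgccccgctCACGTGACcgcggcgcatg
Glb1 (chr9:114401017-114401046, + strand): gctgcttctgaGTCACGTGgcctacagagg
Gla (chrX:134601183-134601212, - strand): gtgagatctcgGTCACGTGagcaactctcg
Atp6v0d1 (chr8:105566051-105566080, - strand): gccctactgcgGTCACGTGagacgcggtgc
Atg7 (chr6:114670951-114670980, + strand): ccatattggtgGTCACGTGtgcagtaagtg
Atg3 (chr16:45158745-45158774, + strand): gggagagtcgaGTCACGTGaggccttaggt
Atg14 (chr14:47568417-47568446, - strand): aaacaaaatccCACGTGACtggccctgagc

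Atg5, the gene with the largest difference between pools, is shown with its whole upstream window of 250 bases, which held the E-box (in capitals) but not the longer match.
Atg5 (chr10:44268089-44268338, + strand): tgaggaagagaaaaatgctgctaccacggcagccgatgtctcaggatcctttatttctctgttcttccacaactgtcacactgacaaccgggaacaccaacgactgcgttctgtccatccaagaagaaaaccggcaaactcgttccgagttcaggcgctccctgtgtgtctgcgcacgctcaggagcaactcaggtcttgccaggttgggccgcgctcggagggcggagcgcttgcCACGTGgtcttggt

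Per kilobase of the longest coding transcript, the highest levels in scramble replicates 2 and 3 belonged to Psap (prosaposin, 549 CPM per kb), Ctsd (cathepsin D, 456), Ctsb (cathepsin B, 441), Lamp1 (a lysosomal membrane glycoprotein, 318) and Sqstm1 (the cargo receptor p62, 254). The lowest tested genes on that scale were Mitf (0.709 CPM per kb), Optn (the cargo receptor optineurin, 3.27) and Tfeb (4.23). Lysosomal proteins took 4 of the 5 highest places, and 2 of the 3 transcription factors were among the 3 lowest. The places rest on the longest annotated transcript, and which transcripts the cells made was not determined. Ctsl, with a length of 6168 bases on this rule, took place 7.

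The deposited counts are per gene, and for some members exons of a neighbour overlap in GENCODE M21 (GRCm38). No other exon overlaps Ulk1 (chr5:110784488-110810097, - strand), Atg7 (chr6:114643097-114860614, + strand), Gabarap (chr11:69991143-69994951, + strand), Gusb (chr5:129989011-130003049, - strand), Atp6v0d1 (chr8:105524465-105566047, - strand) or Ctsh (chr9:90054152-90076089, + strand). On the opposite strand, exons of Gskip overlap Atg2b (chr12:105616136-105685211, - strand), exons of Zcchc14 overlap Map1lc3b (chr8:121590361-121598760, + strand), exons of Tmem202 overlap Hexa (chr9:59539540-59565109, + strand) and exons of Scpep1os overlap Scpep1 (chr11:88924020-88955465, - strand). Exons of Tmppe on the same strand overlap Glb1 (chr9:114401076-114474898, + strand).

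Scramble replicate 1 differed from its own group in many members. The median log2 difference of that library from the mean of scramble replicates 2 and 3 was 0.38 over the 20 tested lysosomal genes and 0.16 over the 25 autophagy genes, against 0.03 over all genes tested. The difference moved with transcript length. In the 16 shortest of the tested members (1112 to 2352 bases) the median was 0.65 with 16 of 16 above 0, in the next 16 it was 0.23 with 11 of 16, and in the 16 longest (3729 to 7607 bases) -0.55 with 6 of 16. The part of transcript length in the comparisons with scramble was not tested.

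**Figure D1:**
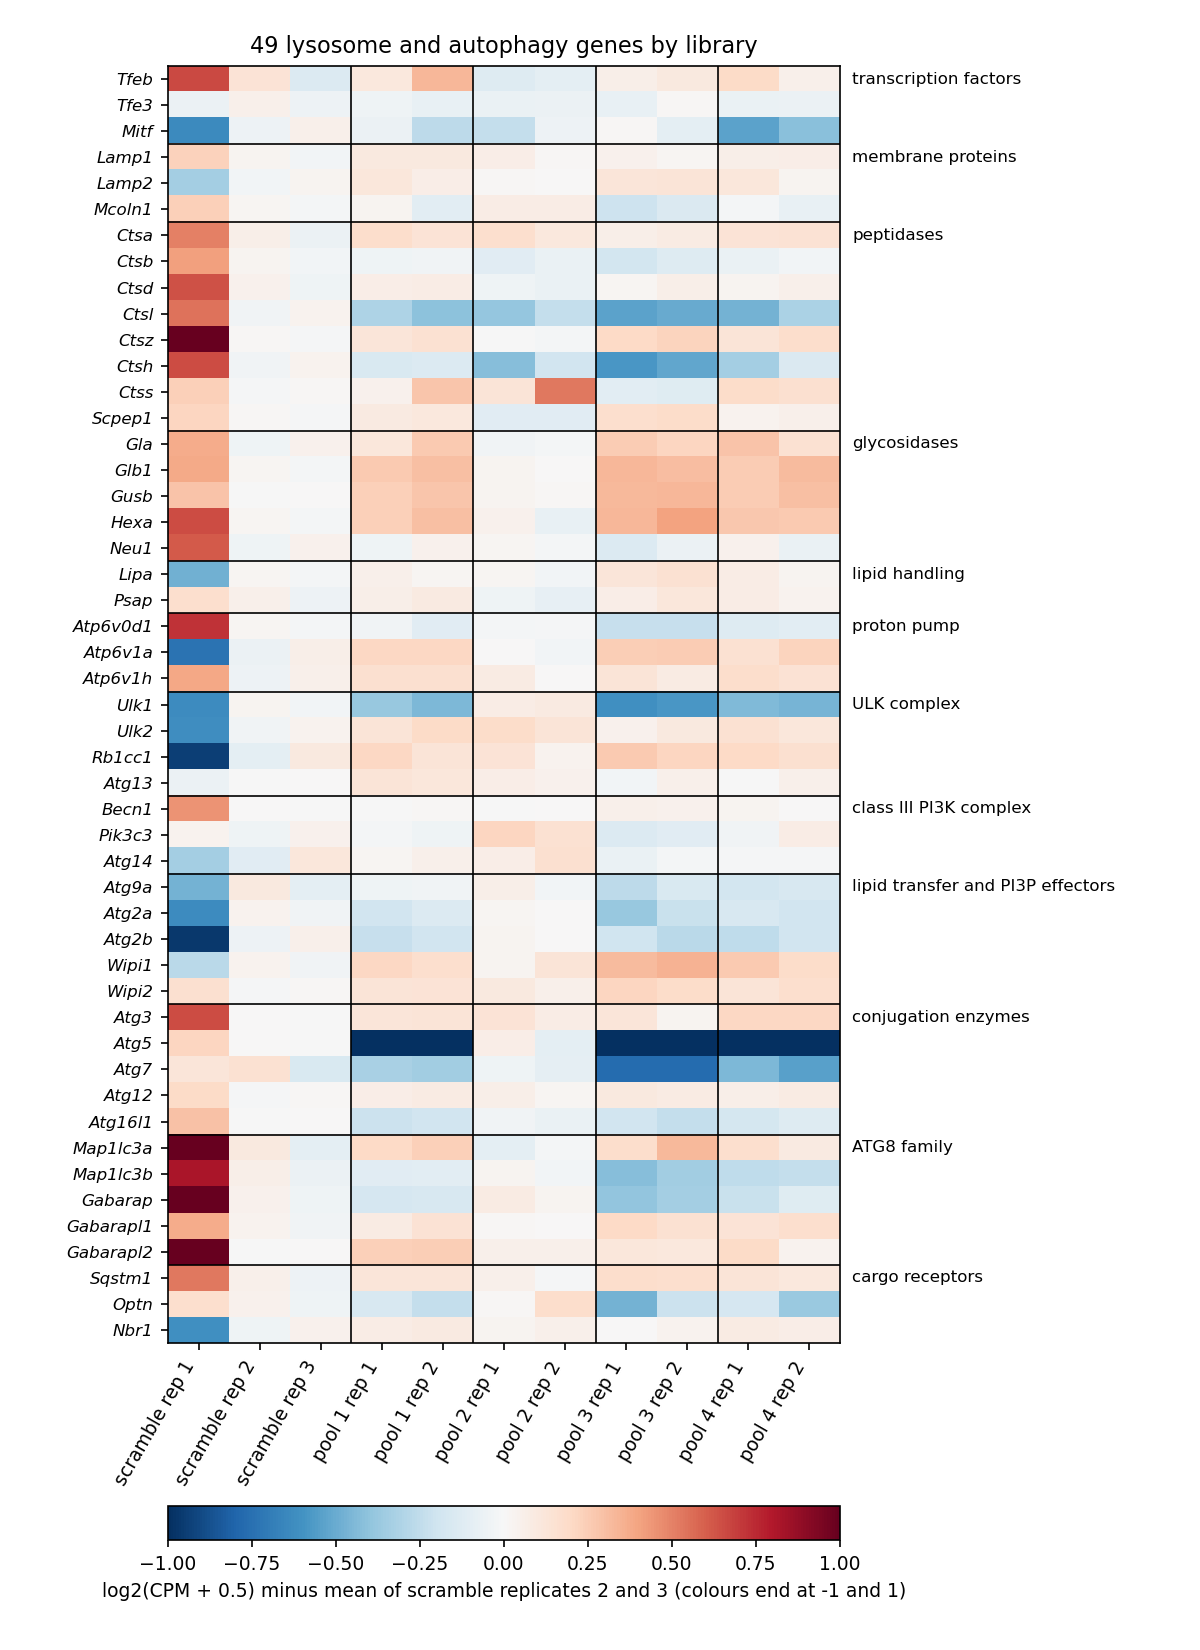
Heat map of all 49 genes (rows, grouped by role) in the 11 libraries (columns), as log2(CPM + 0.5) minus the mean of scramble replicates 2 and 3. Scramble replicate 1 differs from replicates 2 and 3 in many rows, and Atg5 is low in pools 1, 3 and 4 but not in pool 2.

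Of the 3 transcription factors, none passed the test in the comparison of all pools with scramble. Tfe3 stood at 80.0, 86.2 and 80.7 CPM in scramble, 81.1 and 79.3 in pool 1, 79.6 and 80.2 in pool 2, 79.1 and 84.1 in pool 3, and 79.7 and 80.0 in pool 4. Tfeb stood at 15.9, 10.9 and 8.93 CPM in scramble, 10.6 and 12.5 in pool 1, 8.96 and 9.17 in pool 2, 10.3 and 10.6 in pool 3, and 11.3 and 10.2 in pool 4. Mitf stood at 2.05, 3.32 and 3.61 CPM in scramble, 3.31 and 2.80 in pool 1, 2.86 and 3.31 in pool 2, 3.49 and 3.20 in pool 3, and 2.23 and 2.46 in pool 4. For all 3 the pool libraries overlapped the scramble libraries. In the edgeR test of all pools against scramble, log2 fold changes were -0.23 ± 0.15 (SE) for Tfeb (adjusted p = 0.298), -0.08 ± 0.06 for Tfe3 (adjusted p = 0.4) and -0.05 ± 0.19 for Mitf (adjusted p = 0.864). Without scramble replicate 1 the value for Tfeb was 0.02 ± 0.11 (adjusted p = 0.943), with the sign turned, that for Tfe3 -0.11 ± 0.04 (adjusted p = 0.184) and that for Mitf -0.28 ± 0.16 (adjusted p = 0.312). Pool by pool, none of the 3 was called with all scramble libraries. Without scramble replicate 1, Tfe3 was lower in pools 1, 3 and 4, at -0.13 ± 0.05, -0.12 ± 0.05 and -0.13 ± 0.05 (edgeR adjusted p of 0.0458, 0.0344 and 0.0458), and Mitf was lower in pool 4, at -0.62 ± 0.17 (adjusted p = 0.00916). These are mRNA levels; TFEB and TFE3 are known to be controlled by their place in the cell, which was not measured here.

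No member passed the test when all 8 pool libraries were compared with the 3 scramble libraries. A call here and below is a Benjamini-Hochberg adjusted p under 0.05 in edgeR's quasi-likelihood test, and in this comparison 0.00707% of the 14144 genes tested were called. At an unadjusted p below 0.05 there were 14 of 48 members, where 28.6% of all genes were. DESeq2 called 6 members (8.44% of the genes to which it gave an adjusted p) and limma-voom 0. The median log2 fold change was -0.06 over the lysosomal genes, -0.06 over the autophagy genes and -0.02 over all genes tested. The count of members called was 1 without scramble replicate 1 (0.469% of all genes, and 0.356% lower), 10 without scramble replicate 3 (16.5%) and 1 without pool 2 replicate 2 (0.285%). The 8 pool libraries come as 2 from each of 4 pools and enter this fit as if independent.

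Ctsl, the gene of the lysosomal protease cathepsin L, was the member called without scramble replicate 1. It stood at 1445, 971 and 1017 CPM in scramble, 801 and 746 in pool 1, 759 and 840.3 in pool 2, 685 and 702 in pool 3, and 714 and 797 in pool 4. All 8 pool libraries lay below all 3 scramble libraries. The log2 fold change was -0.64 ± 0.12 (edgeR adjusted p = 0.0833) with all libraries and -0.45 ± 0.08 (adjusted p = 0.0466) without scramble replicate 1. Pool by pool, and without that library, Ctsl was lower in each pool, at -0.43, -0.33, -0.61 and -0.46 in pools 1 to 4, with edgeR adjusted p from 7.95e-09 to 0.000599. Exons of Ctsl (chr13:64359337-64370890, GRCm38) overlap an antisense gene and a pseudogene in GENCODE M21, and the strand setting of the counting is not stated.

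Ctsh, which encodes the aminopeptidase cathepsin H, was likewise lowest in pool 3 and highest in scramble by group mean. It stood at 90.8, 56.2 and 59.2 CPM in scramble, 51.8 and 52.4 in pool 1, 42.8 and 50.4 in pool 2, 38.5 and 40.1 in pool 3, and 45.4 and 52.1 in pool 4. All pool libraries again lay below all scramble libraries. The log2 fold change of -0.60 ± 0.15 did not pass (edgeR adjusted p = 0.108), nor did that of -0.36 ± 0.12 without scramble replicate 1 (adjusted p = 0.166). Pool by pool without that library the values were -0.22, -0.32, -0.64 and -0.30 in pools 1 to 4, with edgeR adjusted p from 1.99e-07 to 0.023.

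Each pool was then set against scramble in 1 fit with 5 groups, and these 4 comparisons share the scramble libraries. In pool 1, 1 member was called, Atg5, which was lower (1.93% of all genes were called, and 1.47% were lower). In pool 2 no member was called (0.00707% of all genes), with 2 of 48 at an unadjusted p below 0.05 (4.62% of all genes) and 0 called by DESeq2 and by limma-voom. In pool 3, 5 members were called and all were lower: Atg5, Atg7, Atg16l1, Ctsl and Ctsh (11.2% of all genes, and 6.84% lower). In pool 4, 2 were called, Atg5 and Atg7, both lower (2.57% of all genes, and 1.99% lower).

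Without scramble replicate 1 many more genes were called in pools 1, 3 and 4. In pool 1, 17 members were called (28.8% of all genes), 4 higher (11.8% of all genes) and 13 lower (17%). In pool 3, 27 members were called (48.8% of all genes), 9 higher (22.7% of all genes) and 18 lower (26.1%). In pool 4, 22 members were called (31% of all genes), 6 higher (13.2% of all genes) and 16 lower (17.8%). Atp6v1a, Glb1, Gusb and Hexa were among the higher genes in all 3 pools, and Atg5, Atg7, Ulk1, Gabarap and Map1lc3b among the lower. In pool 2, 2 members were called (4.39% of all genes), Ctsl and Ctsh, both lower (2.69% of all genes). Other libraries also weighed on the counts with all of scramble. In pool 1 the count was 0 without pool 1 replicate 2 and 2 without scramble replicate 3. In pool 3 it was 2 without either pool 3 library and 3 without any 1 library of pools 1 and 4. In pool 4 it was 0 without pool 4 replicate 1, and 1 without pool 4 replicate 2, scramble replicate 2 or any 1 library of pools 1, 2 and 3. Over all genes, leaving out each library in turn gave 9 to 4044 calls in pool 1, 210 to 6864 in pool 3 and 17 to 4364 in pool 4. The member counts of these settings are therefore no result about the members in particular.

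Differences among the pools were tested in the 8 pool libraries alone, so that no scramble library enters. Of the 48 members, 31 differed among the 4 pools, where 48.6% of 14056 genes did. They were 14 of 20 lysosomal genes, 17 of 25 autophagy genes and 0 of 3 transcription factors. By role, 6 of 7 tested peptidases, 5 of 5 glycosidases and 4 of 5 genes of the coupling cascade differed. The counts were 1 of 3 for lysosomal membrane proteins, 0 of 2 for genes of lipid handling and 1 of 3 for cargo receptors.

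Pool 2, the pool without siRNA 7, differed from the mean of the other 3 in 29 members (47.6% of all genes), with 17 higher in pool 2 (25.3% of all genes) and 12 lower (22.3%). Among autophagy genes 13 were higher and 3 lower, with a median log2 difference of 0.10. Among lysosomal genes 4 were higher and 8 lower, with a median of -0.03, and over all genes tested the median was -0.01. Tfeb was lower, at -0.21 ± 0.08 on the log2 scale (edgeR adjusted p = 0.0406), although it did not pass the test across the 4 pools (adjusted p = 0.0808). When all 11 libraries were fitted together, the pool 2 contrast called 2 members, Atg5 and Atg7 (5.25% of all genes). With the 10 libraries other than scramble replicate 1, a fit added after the values were seen, it called 25 (43.7%).

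Cell markers moved with the same contrast. Summed granulosa markers stood at 3387 to 3615 CPM in pool 2 and 2407 to 3164 CPM in pools 1, 3 and 4, and 7 of 9 tested were higher in pool 2. Summed theca and stroma markers, with Cyp17a1 under 1 CPM, stood at 3509 to 3615 against 2445 to 2904 CPM (3 of 6 higher), and surface epithelium markers at 137 to 143 against 94.2 to 119 CPM (3 of 5 higher). Summed macrophage markers stood at 3.32 to 5.02 against 4.43 to 8.62 CPM, and 1 of 3 tested, Csf1r, was lower in pool 2. Endothelium markers summed to 13.3 to 15.0 against 15.1 to 19.2 CPM, with Kdr and Tek lower in pool 2 and the others not called. Oocyte markers summed to 3.51 to 3.55 against 2.89 to 5.70 CPM, with Gdf9 lower and Ddx4 not called. Over all genes tested, 25.3% were higher in pool 2 and 22.3% lower. The part of these cell types in the differences of lysosome and autophagy genes was not tested.

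Atg5, which joins ATG12 in the complex that couples LC3 to membranes, had the largest difference of the set. It stood at 46.4, 40.0 and 39.9 CPM in scramble, 18.3 and 17.4 in pool 1, 42.0 and 37.3 in pool 2, 15.0 and 15.8 in pool 3, and 17.1 and 19.0 in pool 4. All 6 libraries of the pools that contain siRNA 7 were below 20 CPM, and the 2 pool 2 libraries, 42.0 and 37.3 CPM, were near the scramble libraries. Pool 2 was higher than the mean of the other pools by 1.27 ± 0.05 on the log2 scale (edgeR adjusted p = 2.76e-14), with rank 130 by p among the 14056 genes tested. Against scramble the log2 differences were -1.29 ± 0.11, -0.09 ± 0.10, -1.52 ± 0.11 and -1.26 ± 0.11 in pools 1 to 4, with edgeR adjusted p of 0.00147, 0.653, 0.000283 and 0.00142. The mean of the 6 libraries of pools 1, 3 and 4 was 42.8% of that of scramble replicates 2 and 3, and the mean of pool 2 was 99.2%. Pool 2 had at the same time the lowest group mean of Akt1, 53.9 CPM. The cause of the difference in Atg5 between pools was not tested. No exon of another gene overlaps Atg5 (chr10:44268358-44364291, + strand, GRCm38) in GENCODE M21.

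Atg7, the enzyme that activates ATG12 and the LC3 family, showed a smaller step. It stood at 28.0, 28.5 and 23.1 CPM in scramble, 20.5 and 20.0 in pool 1, 24.9 and 24.1 in pool 2, 14.9 and 14.8 in pool 3, and 18.7 and 17.5 in pool 4. Pool 2 lay inside the scramble range and the other 6 pool libraries lay below it. Pool 2 exceeded the other pools by 0.54 ± 0.05 on the log2 scale (edgeR adjusted p = 2.05e-08). Atg16l1, which places the ATG5 complex on membranes, was higher in pool 2 by 0.20 ± 0.04 (adjusted p = 0.000261). Atg12 and Atg3, the most abundant genes of this group, were not called in the pool 2 contrast. Atg12 stood at 95.5 ± 7.48 CPM in scramble (SD, n = 3) with pool means of 93.7 to 97.0 CPM. Atg3 stood at 59.1 ± 16.4 CPM with pool means of 52.3 to 57.4 CPM. Against scramble without replicate 1, Atg3 was higher in pool 4 by 0.15 ± 0.05 (edgeR adjusted p = 0.0303).

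**Figure D2:**
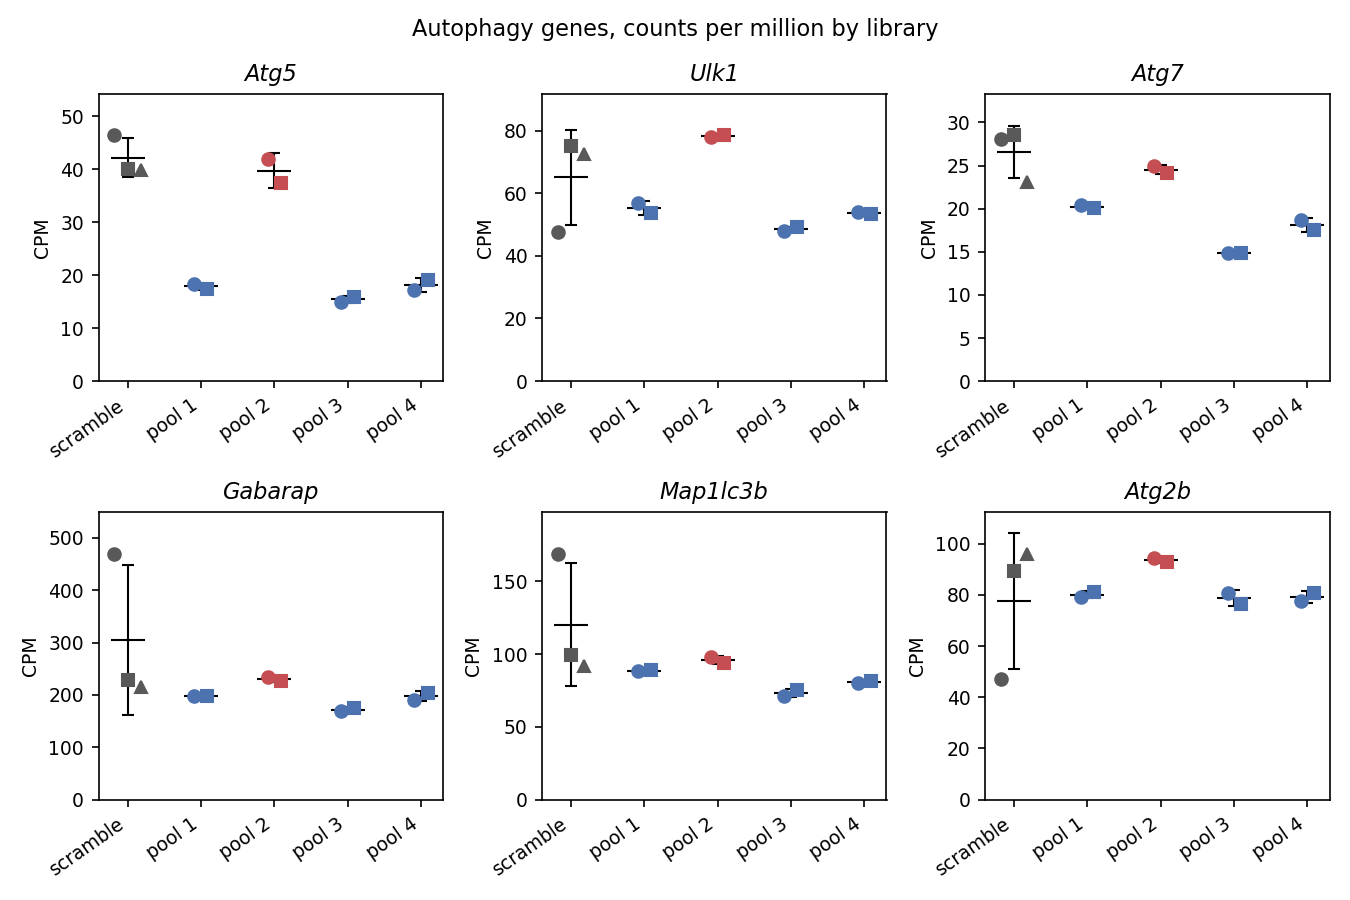
CPM (y axes) of 6 autophagy genes by group (x axes), with each library as a point (scramble grey, pool 2 red, other pools blue; circle, square and triangle for replicates 1, 2 and 3) and the group mean and SD as bars. Pool 2 lies above pools 1, 3 and 4 in each panel, with Atg5 at 42.0 and 37.3 CPM in pool 2 and below 20 CPM in the other pools.

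In the ULK complex, which starts autophagy, the kinase Ulk1 differed most. It stood at 47.5, 75.2 and 72.4 CPM in scramble, 56.7 and 53.8 in pool 1, 77.8 and 78.5 in pool 2, 48.05 and 49.05 in pool 3, and 54.1 and 53.3 in pool 4. Both pool 2 libraries were above the 6 others, near scramble replicates 2 and 3, while scramble replicate 1 was the lowest of the 11 libraries. Pool 2 exceeded the other pools by 0.63 ± 0.03 on the log2 scale (edgeR adjusted p = 1.12e-12). Its paralog Ulk2 was higher by 0.10 ± 0.03 (adjusted p = 0.0163), at 71.8 ± 16.6 CPM in scramble (SD, n = 3) and pool means of 85.4 to 90.7 CPM. The scaffold Rb1cc1 (FIP200) differed by -0.05 ± 0.03 (adjusted p = 0.228), at 75.2 ± 25.8 CPM in scramble and pool means of 95.1 to 106 CPM, and Atg13 by 0.06 ± 0.03 (adjusted p = 0.177).

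In the class III PI3-kinase complex the catalytic subunit Pik3c3 was higher in pool 2 by 0.29 ± 0.04 (edgeR adjusted p = 1.14e-05), and Atg14, which directs the complex to autophagy, by 0.18 ± 0.04 (adjusted p = 0.00183; 30.3 ± 4.77 CPM in scramble (SD, n = 3), pool means 31.6 to 35.2 CPM). Becn1 (beclin 1) was not called (0.04 ± 0.03, adjusted p = 0.301) and stood at 151 ± 28.4 CPM in scramble with pool means of 134 to 139 CPM. All 3 genes of lipid supply were higher in pool 2: the lipid transfer genes Atg2a (0.28 ± 0.04) and Atg2b (0.30 ± 0.03) and the scramblase gene Atg9a (0.22 ± 0.04), with edgeR adjusted p of 1.91e-06, 9.67e-08 and 4.71e-05. Atg2b stood at 47.2, 89.4 and 96.1 CPM in scramble, 79.1 and 81.0 in pool 1, 94.3 and 92.7 in pool 2, 80.8 and 76.6 in pool 3, and 77.6 and 80.9 in pool 4, with no overlap between pool 2 and the other pools. Of the proteins that bind PI3P, Wipi1 was lower in pool 2 (-0.11 ± 0.04, adjusted p = 0.0268 in edgeR) and Wipi2 was not called (-0.03 ± 0.03, adjusted p = 0.452), at 96.7 ± 6.39 CPM in scramble and pool means of 98.0 to 107 CPM.

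The ATG8 family, the small proteins coupled to the growing membrane, split in direction. Gabarap stood at 469.5, 228 and 215 CPM in scramble, 198 and 198 in pool 1, 235 and 226 in pool 2, 169 and 175 in pool 3, and 190.4 and 204 in pool 4. Map1lc3b (LC3B) stood at 169, 99.6 and 92.1 CPM in scramble, 88.3 and 88.8 in pool 1, 97.8 and 93.9 in pool 2, 71.2 and 75.0 in pool 3, and 80.3 and 81.2 in pool 4. For both, each pool 2 library was above the 6 other pool libraries, and scramble replicate 1 was far above the rest of its group. The differences of pool 2 from the other pools were 0.35 ± 0.03 (edgeR adjusted p = 2.75e-09) and 0.31 ± 0.03 (adjusted p = 3.35e-08). Map1lc3a (LC3A) was lower in pool 2 (-0.20 ± 0.04, adjusted p = 0.000566), and so was Gabarapl1 (-0.08 ± 0.03, adjusted p = 0.0316), at 106 ± 16.4 CPM in scramble (SD, n = 3) and pool means of 96.9 to 109 CPM. Gabarapl2 was not called (-0.05 ± 0.06, adjusted p = 0.535).

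Among cargo receptors, which tie cargo to LC3, Optn was higher in pool 2 by 0.44 ± 0.09 (edgeR adjusted p = 0.000446), at 6.03 to 9.71 CPM over the 8 pool libraries. Sqstm1 did not pass (-0.06 ± 0.03, adjusted p = 0.0635), at 777 ± 173 CPM in scramble (SD, n = 3), 686 ± 20.8 in pool 2 (n = 2) and 745 ± 15.0 over the other 6 pool libraries. Nbr1 was not called (0.04 ± 0.03, adjusted p = 0.206), at 201 ± 46.2 CPM in scramble and pool means of 231 to 240.1 CPM.

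Of the 5 lysosomal glycosidases, 4 were lower in pool 2. Hexa, a subunit of the hexosaminidase that degrades GM2 ganglioside, stood at 376, 242 and 236 CPM in scramble, 283 and 295 in pool 1, 247 and 227 in pool 2, 302 and 316 in pool 3, and 288 and 287 in pool 4. Gusb, the beta-glucuronidase, stood at 133, 109 and 109.5 CPM in scramble, 129 and 133 in pool 1, 111 and 109.9 in pool 2, 137 and 137 in pool 3, and 130.0 and 135 in pool 4. Glb1, the beta-galactosidase, stood at 94.3, 73.7 and 71.5 CPM in scramble, 86.9 and 89.5 in pool 1, 74.2 and 72.9 in pool 2, 91.8 and 89.9 in pool 3, and 86.7 and 90.3 in pool 4. In all 3 genes the 6 libraries of pools 1, 3 and 4 lay above pool 2 and scramble replicates 2 and 3, while scramble replicate 1 lay within or above these 6. The differences of pool 2 from the other pools were -0.26 ± 0.03 for Hexa (edgeR adjusted p = 7.56e-07), -0.21 ± 0.03 for Gusb (adjusted p = 3.60e-06) and -0.22 ± 0.03 for Glb1 (adjusted p = 5.84e-06).

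Of the other glycosidases, the alpha-galactosidase Gla was lower (-0.19 ± 0.05, adjusted p = 0.0055 in edgeR) and the sialidase Neu1 was not called (0.09 ± 0.04, adjusted p = 0.052). Against scramble without replicate 1, Hexa, Gusb and Glb1 were higher in pools 1, 3 and 4 by 0.19 to 0.28 on the log2 scale, with edgeR adjusted p from 2.40e-05 to 0.00142. In pool 2 the same genes gave -0.03 ± 0.04, 0.00 ± 0.04 and 0.00 ± 0.04, and none passed. With all 3 scramble libraries none of these differences was called, and the values ranged from -0.03 to 0.16 in pools 1, 3 and 4. Exons of Glb1 overlap Tmppe on the same strand and exons of Hexa overlap Tmem202 on the other, so some reads may be shared.

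Peptidases went in both directions. Scpep1, a serine carboxypeptidase, stood at 165, 143 and 141 CPM in scramble, 151 and 153 in pool 1, 131 and 132 in pool 2, 159.7 and 162 in pool 3, and 145 and 147 in pool 4. Both pool 2 libraries were below the other 9, at -0.16 ± 0.03 against the other pools (edgeR adjusted p = 5.13e-05), and the gene has an antisense partner, Scpep1os. Ctsz was also lower (-0.12 ± 0.03, adjusted p = 0.00105), while Ctsl (0.17 ± 0.04, adjusted p = 0.00107) and Ctsa, which protects beta-galactosidase and sialidase (0.08 ± 0.03, adjusted p = 0.0279), were higher. The abundant cathepsins Ctsb and Ctsd were not called in the pool 2 contrast. They stood at 2320.1 ± 400.1 and 1150.2 ± 313 CPM in scramble (SD, n = 3) with pool means of 1880.0 to 2035 and 934 to 1021 CPM. Against scramble without replicate 1, Ctsb was lower in pools 1, 3 and 4, at -0.11, -0.24 and -0.11 (edgeR adjusted p of 0.0494, 3.28e-05 and 0.0385). In the pool 2 contrast Ctsh was not called (0.06 ± 0.05, edgeR adjusted p = 0.349), and its sign turned on 1 library, with -0.063 without pool 2 replicate 2.

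**Figure D3:**
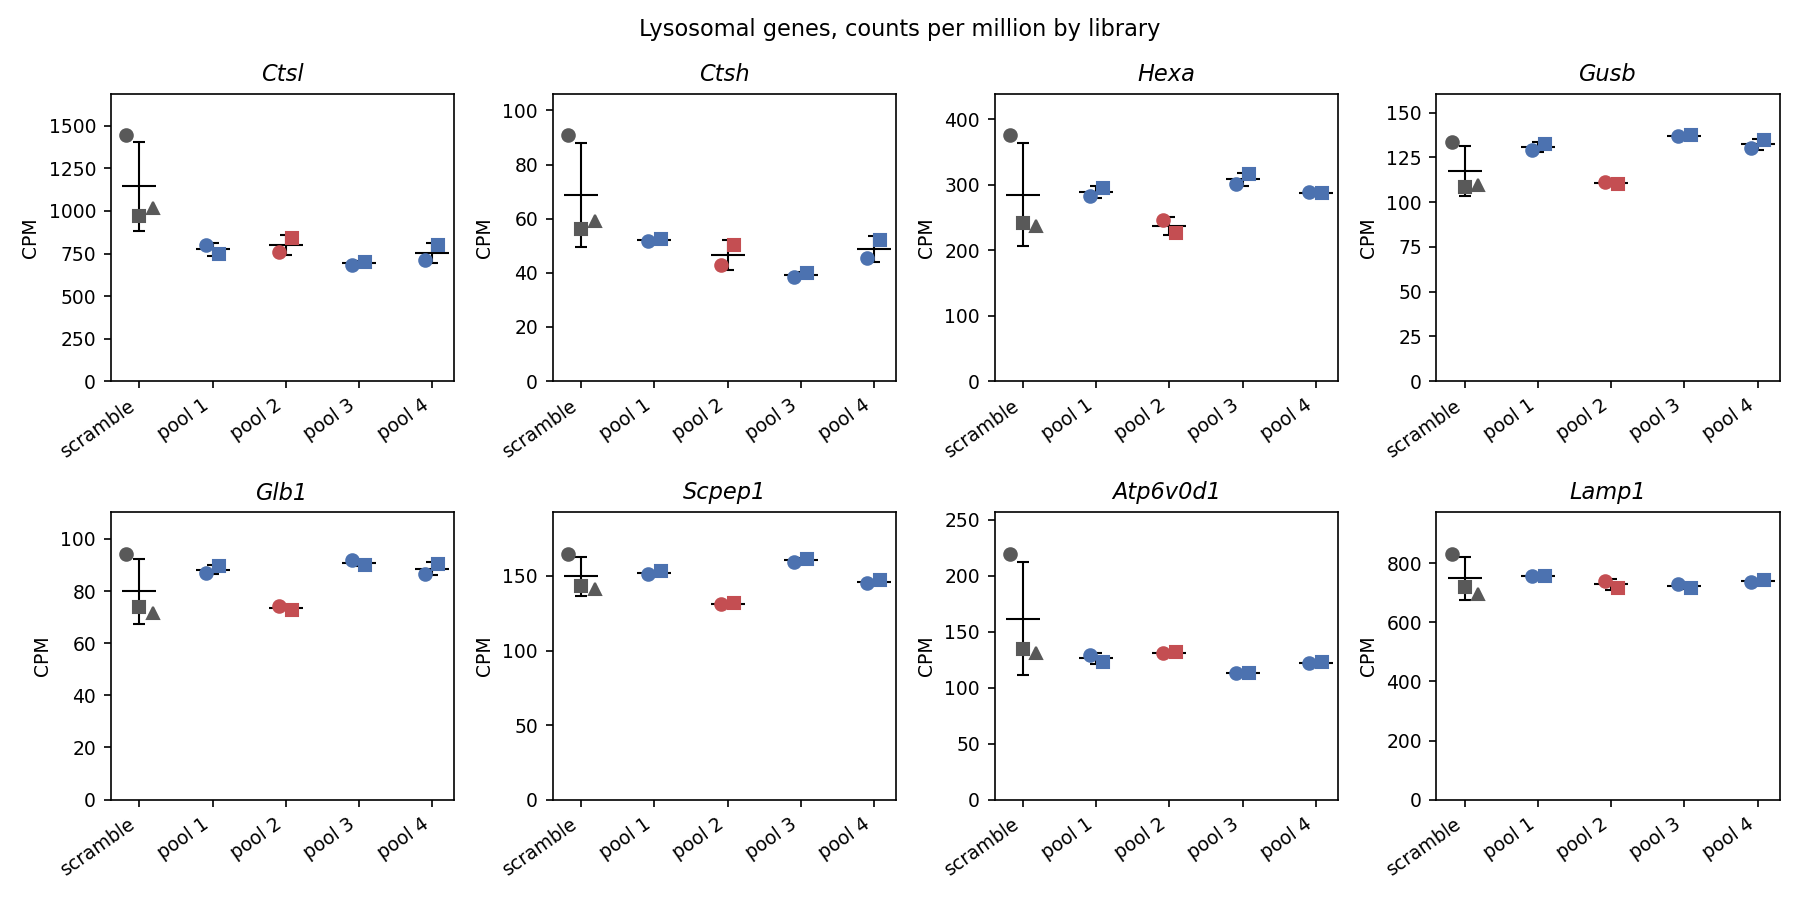
CPM (y axes) of 8 lysosomal genes by group (x axes), with each library as a point (scramble grey, pool 2 red, other pools blue; circle, square and triangle for replicates 1, 2 and 3) and the group mean and SD as bars. Ctsl and Ctsh lie below all 3 scramble libraries in every pool, and Hexa, Gusb, Glb1 and Scpep1 are lower in pool 2 than in pools 1, 3 and 4.

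Subunits of the proton pump moved in opposite directions. Atp6v0d1, of the membrane sector, stood at 219, 134 and 131 CPM in scramble, 129.5 and 123 in pool 1, 131 and 131 in pool 2, 113 and 113 in pool 3, and 122 and 123 in pool 4. It was higher in pool 2 by 0.18 ± 0.03 (edgeR adjusted p = 2.14e-05); pool 3 was the lowest group. Atp6v1a, the catalytic subunit of the cytosolic sector, was lower in pool 2, at -0.17 ± 0.03 (adjusted p = 2.42e-05), at 210.3 ± 3.82 CPM in pool 2 (SD, n = 2) and 246 ± 6.10 over the other 6 pool libraries. Atp6v1h was not called (-0.04 ± 0.03, adjusted p = 0.287), at 221 ± 36.4 CPM in scramble (n = 3) and pool means of 207 to 224 CPM.

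Of the lysosomal membrane proteins, Lamp1 and Lamp2 were not called in the pool 2 contrast. Lamp1 stood at 749.7 ± 72.6 CPM in scramble (SD, n = 3) with pool means of 723 to 758 CPM, and Lamp2 at 343 ± 44.9 CPM with pool means of 370.2 to 402 CPM. Mcoln1, the calcium channel TRPML1, was higher in pool 2 by 0.22 ± 0.04 (edgeR adjusted p = 0.000191). Of the genes of lipid handling, Psap was lower, at -0.08 ± 0.03 (adjusted p = 0.0204), at 1518 ± 115 CPM in scramble and pool means of 1395 to 1556 CPM. The acid lipase Lipa was not called (-0.02 ± 0.03, adjusted p = 0.646), at 51.2 ± 9.38 CPM in scramble and pool means of 56.5 to 62.4 CPM.

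Pool 3, the pool without siRNA 8, was the other pool that differed in many members. It differed from the mean of the other 3 pools in 32 (44.5% of all genes), with 8 higher (20.4%) and 24 lower (24.1%). Because pool 2 enters that mean, pool 3 was also set against pools 1 and 4 alone, a comparison chosen after the values were seen. There 21 members were called (29.9% of all genes): 20 were lower in pool 3 (17.2% of all genes) and 1, Scpep1, was higher (12.7%). The lower ones were 11 autophagy and 9 lysosomal genes. Atg7 was lower, at -0.39 ± 0.06 (edgeR adjusted p = 4.54e-05), Ctsh at -0.39 ± 0.06 (4.16e-05), Atg5 at -0.25 ± 0.07 (0.00937), Gabarap at -0.23 ± 0.03 (1.78e-05) and Map1lc3b at -0.23 ± 0.03 (2.18e-05). The glycosidases that were low in pool 2 did not pass here, with Hexa at 0.07 ± 0.03, adjusted p = 0.0966, Gusb at 0.03 ± 0.03, adjusted p = 0.43 and Glb1 at 0.01 ± 0.03, adjusted p = 0.796.

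The count against pools 1 and 4 moved with the tool and the libraries fitted. DESeq2 called 11 (22.3% of the genes to which it gave an adjusted p). The fit of all 11 libraries together called 0 (0.0141% of all genes), and that of the 10 libraries other than scramble replicate 1 called 13 (24.7%). Leaving out pool 3 replicate 1 gave 8 (17.2%) and leaving out pool 3 replicate 2 gave 12 (22.7%). Leaving out pool 1 replicate 1 or 2 gave 12 (25.7%) or 13 (26.1%). Markers moved here too: 6 of 9 tested granulosa markers were lower in pool 3 and 1 higher, and 3 of 6 theca and stroma markers were lower. Of the endothelium markers, Pecam1 (0.61 ± 0.18) and Kdr (0.28 ± 0.10) were higher and Emcn (-0.31 ± 0.11) lower, while Cdh5 and Tek were not called. The edgeR adjusted p of these 3 were 0.0148, 0.0386 and 0.0339. Of the oocyte markers, Ddx4 was higher (0.48 ± 0.15, edgeR adjusted p = 0.0218) and Gdf9 was not called. Over all genes tested, 17.2% were lower in pool 3 and 12.7% higher. Summed macrophage markers were highest in pool 3, at 6.91 and 8.62 CPM. Of the 3 tested, Csf1r was higher in pool 3 by 0.71 ± 0.15 on the log2 scale (edgeR adjusted p = 0.000965), and Lyz2 (0.62 ± 0.29, adjusted p = 0.112) and Cd14 (0.39 ± 0.20, adjusted p = 0.153) were not called. Their part in the result was not tested.

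Pools 1 and 4 differed from the mean of the other 3 pools, which includes pool 2, in few members. Pool 1 differed in 2 (2.99% of all genes, 1.05% higher and 1.94% lower): Atg5 was lower, at -0.33 ± 0.06 (edgeR adjusted p = 0.00299) and Ctsh higher by 0.21 ± 0.05 (adjusted p = 0.0358). Pool 4 differed in 2 (2.37% of all genes, 1.81% lower): Atg5 was lower, at -0.30 ± 0.06 (edgeR adjusted p = 0.00937) and Ulk1 at -0.15 ± 0.04 (adjusted p = 0.0279). In pool 1 the count was 0 without pool 1 replicate 2, and 1 without pool 1 replicate 1 or either pool 3 library. In pool 4 it was 0 without pool 4 replicate 1, and 1 without pool 4 replicate 2, pool 1 replicate 1 or pool 3 replicate 2. Over all genes, leaving out each pool library in turn gave 139 to 487 calls for pool 1 and 119 to 339 for pool 4. The member counts of these settings are therefore no result about the members in particular.

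**Figure D4:**
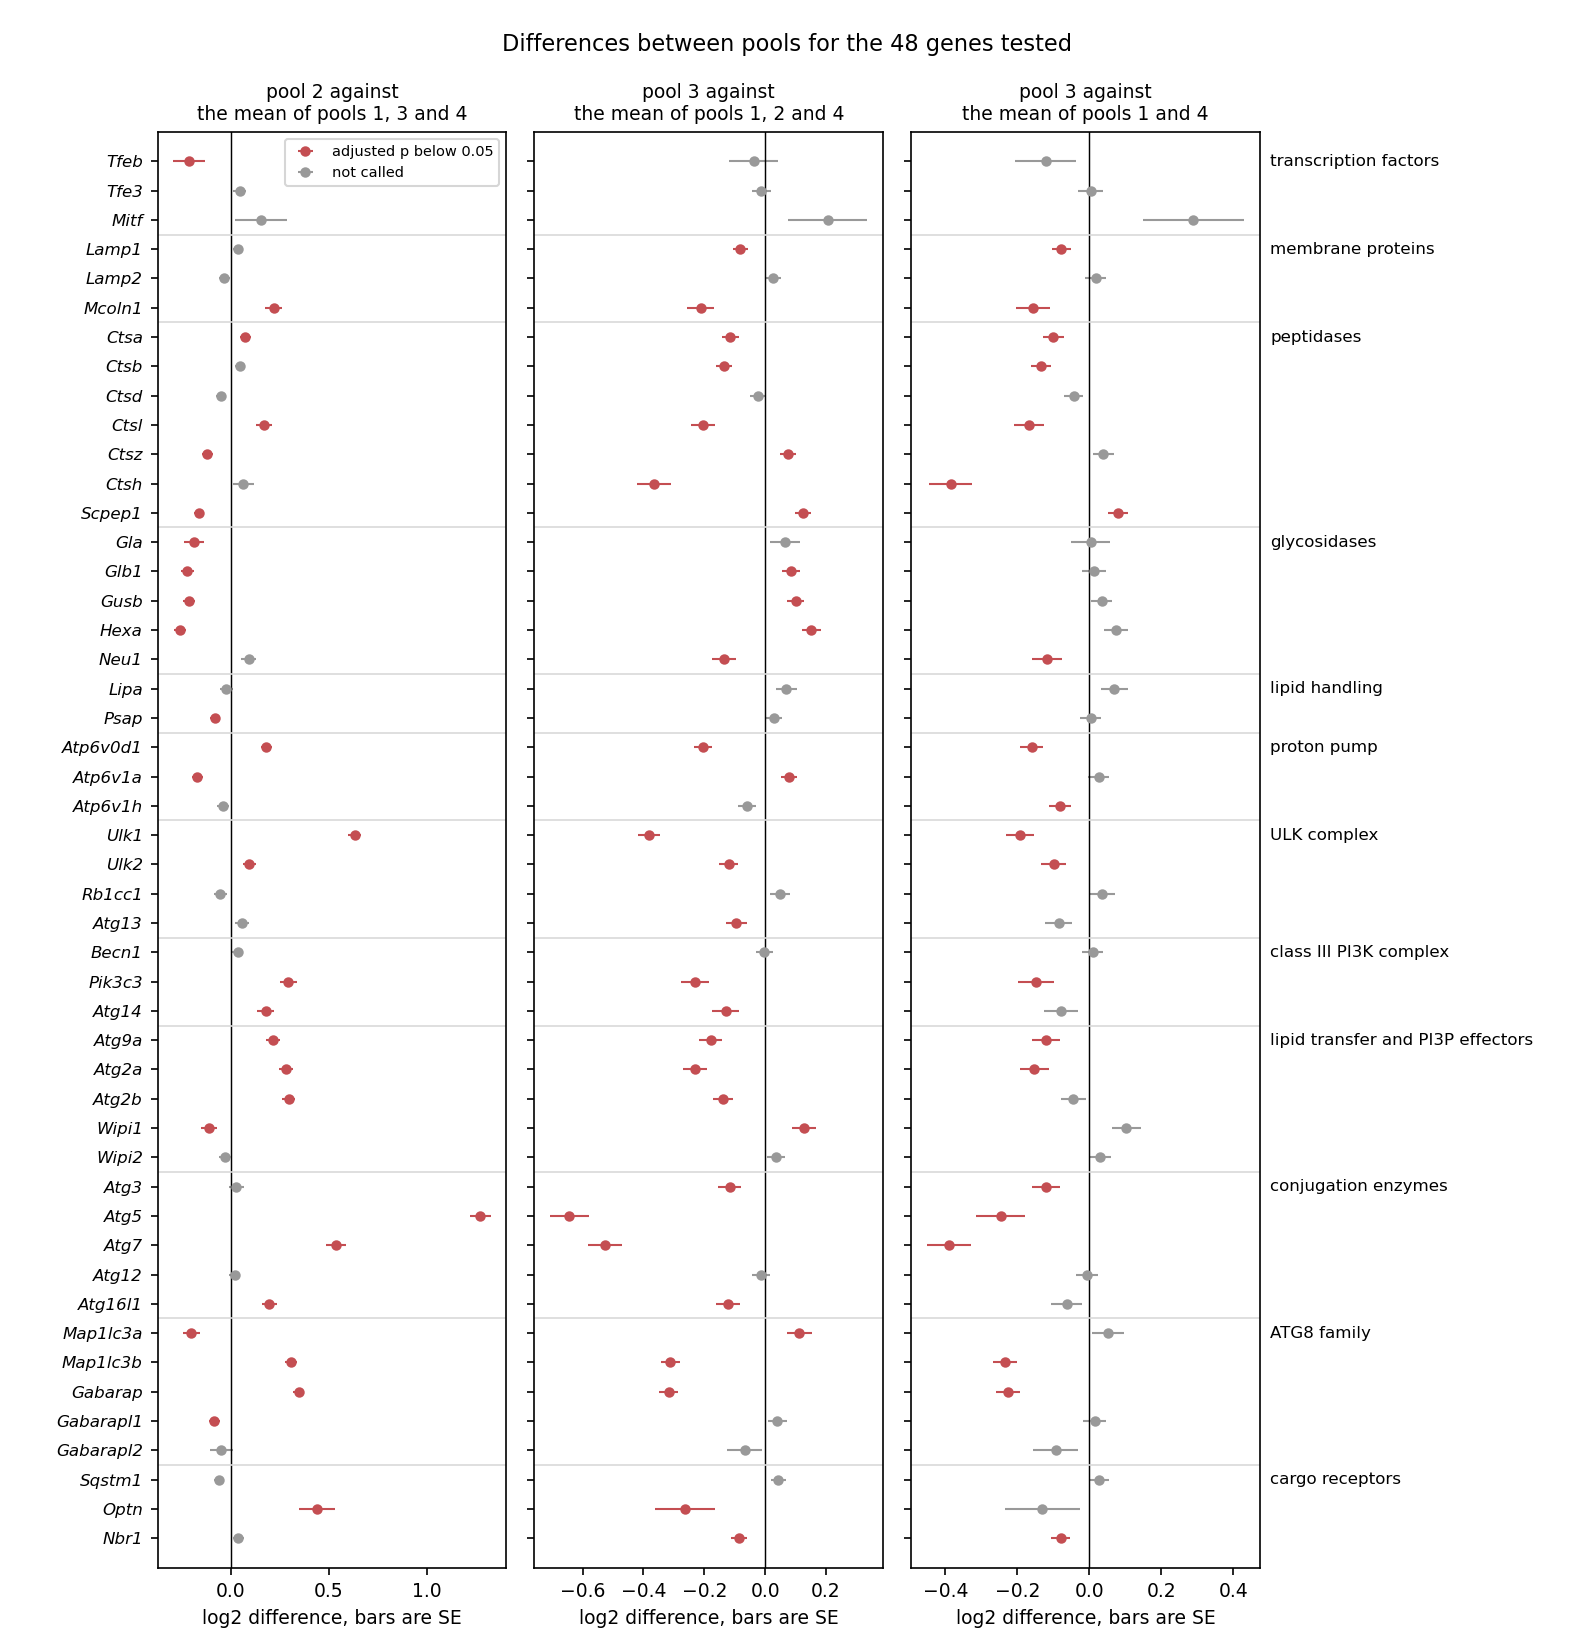
Log2 differences (x axes, with SE as bars) of the tested genes (rows, grouped by role) between pools, with genes at an adjusted p below 0.05 in red and the others in grey. Atg5 has the largest difference for pool 2 against the other 3 pools (1.27), and 20 of the 21 calls for pool 3 against pools 1 and 4 are lower in pool 3.

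Further genes of both pathways, from a wider list, also went in both directions. In all pools against scramble, none of 61 further lysosomal genes tested and none of 41 further autophagy genes was called by edgeR, with 21 and 12 at an unadjusted p below 0.05 (28.6% of all genes). In the pool 2 contrast, 26 of the 61 lysosomal genes were higher (25.3% of all genes) and 12 lower (22.3%). The largest among the higher genes were Ppt2, a palmitoyl-protein thioesterase (0.75 ± 0.05), Clcn7, a chloride-proton exchanger (0.55 ± 0.03), Tmem192 (0.43 ± 0.05) and Cln3 (0.34 ± 0.05). The lower genes included the protease Lgmn (-0.48 ± 0.03), Ctso (-0.33 ± 0.06) and Naglu (-0.23 ± 0.05).

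Of the 41 further autophagy genes, 18 were higher in pool 2 (25.3% of all genes) and 3 lower (22.3%). Nrbf2, a subunit of the class III PI3-kinase complex, was higher by 0.81 ± 0.08 (edgeR adjusted p = 4.51e-08). Atg4b, the protease that trims LC3 and GABARAP, was higher by 0.52 ± 0.03 (adjusted p = 4.53e-11), followed by Vamp8 (0.45 ± 0.04) and Fnip2 (0.37 ± 0.06). The 3 lower genes were Atg101 (-0.14 ± 0.05), Fnip1 (-0.09 ± 0.03) and Ambra1 (-0.08 ± 0.03).

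Calls in both directions were found with and without the CLEAR letters shown above. Of the 10 members with GTCACGTG or its reverse complement, 5 were higher in pool 2 (Atg7, Atg14, Atp6v0d1, Ctsa and Mcoln1), 2 lower (Gla and Glb1) and 3 not called. Of the 29 tested members whose windows lacked it, 10 were higher, 9 lower and 10 not called. Of all genes tested in this contrast, 25.3% were higher and 22.3% lower. Among the genes shown above with GTCACGTG, Atg7 (0.54 on the log2 scale) and Atp6v0d1 were higher, Glb1 (-0.22) and Gla lower, and Atg3 was not called. The part of these letters in the differences was not tested.

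In the authors' deposited table, which sets all pools against scramble, 6 of the 40 members with an adjusted p were below 0.05, and all were lower: Ctsl, Ctsh, Ctsb, Atp6v0d1, Atg16l1 and Map1lc3b. Over all genes with an adjusted p in the authors' deposited table the share was 9.72% (985 of 10136). In the deposited counts, each of these 6 genes was higher in scramble replicate 1 than in scramble replicates 2 and 3. That library was above the mean of those 2 in 16 of the 16 shortest tested members, 11 of the next 16 and 6 of the 16 longest. Without it, all pools against scramble gave -0.45 (Ctsl), -0.36 (Ctsh), -0.14 (Ctsb), -0.16 (Atp6v0d1), -0.21 (Atg16l1) and -0.24 (Map1lc3b) on the log2 scale. There edgeR called only Ctsl. Pool by pool without it, edgeR called all 6 lower in every pool except pool 2, where it called Ctsl and Ctsh. The part of that library in the authors' calls was not tested.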

How the data were processed

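mRNA was measured in 11 TruSeq stranded libraries read as single 75-base reads, 3 scramble and 2 for each of 4 pools, per the labels. The authors deposited raw counts per gene symbol. Per the submitters' processing notes, TopHat2, featureCounts 1.5.0-p2, cutadapt 1.9.1, bcl2fastq 2.15.0, FastQC 0.11.5 and DESeq2 were used with build mm10; order, settings and strand are not stated. The authors also deposited a table of all pools against scramble with the mean normalized signal, the log2 fold change and its error, p-values before and after adjustment, and a score named stat, per the file headers.

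ERCC spike-in rows (0.268 to 0.788% of reads) were left out, and CPM was computed over reads in genes. Counts were filtered with filterByExpr, scaled by TMM and tested over all genes with edgeR 4.0.16 in R 4.3.3 (quasi-likelihood F test, Benjamini-Hochberg adjustment, call at an adjusted p below 0.05). Comparisons with scramble used all 11 libraries, and comparisons between pools the 8 pool libraries. DESeq2 1.42.0, limma 3.58.1 (voom), other scaling and filters, a replicate block and leaving out each library were alternatives. Values in every library are given for the 3 transcription factors, members called over all pools, and the 6 lysosomal and 6 autophagy members with the smallest p across the 4 pools; group means are given for the most abundant members of each role. The members and lists were chosen with earlier results of these data known. The test was tried on simulated counts of 14056 genes for pool 2 against the other pools, with set log2 changes. It recovered 73.1% of 67 genes changed by 0.3, 74.6% of 67 changed by 0.6 and 89.4% of 66 changed by 1. The changed genes were drawn from all genes and were far fewer than the 47.6% called in the data. These shares are therefore no measure of recovery for the members. Gene positions came from GENCODE M21 and promoters from RefSeq.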

Additional observations from a re-analysis of the deposited data

Results flagged for a closer look

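Of the members, 3 had a log2 difference of more than 0.5 between pool 2 and the mean of the other 3 pools, a size chosen after the values were seen, and the contrast itself was the test. Atg5 differed by 1.27 (edgeR adjusted p = 2.76e-14), Ulk1 by 0.63 (adjusted p = 1.12e-12) and Atg7 by 0.54 (adjusted p = 2.05e-08). For all 3, both pool 2 libraries lay above all 6 libraries of pools 1, 3 and 4. Pool 2 is the pool that lacks siRNA 7, which the other 3 share, if pool names are matched by number. The cause of these differences was not tested.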

How the results depend on the processing

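The number of members called moved with the tool and with the libraries fitted. DESeq2 called 6 members for all pools against scramble (8.44% of the genes to which it gave an adjusted p). For single pools against scramble it called 4 in pool 1 and 11 in pool 3. It called 1 for pool 1 and 1 for pool 4 against the other pools, and 11 for pool 3 against pools 1 and 4 (22.3%). With no filter on low counts, pool 4 against scramble called 1. Averaging the 4 pools in the 5-group fit gave 5 for all pools against scramble. The 5-group fit over all 11 libraries called 2 among the 4 pools. Against the others it called 2 for pool 2 (5.25% of all genes), 2 for pool 3 and 0 for pools 1 and 4. For pool 3 against pools 1 and 4 it called 0 (0.0141%). Without scramble replicate 1 that fit, added after the values were seen, called 27 among the 4 pools. Against the others it called 25 for pool 2 (43.7% of all genes), 25 for pool 3, 1 for pool 1 and 1 for pool 4. For pool 3 against pools 1 and 4 it called 13 (24.7%). The cause was not tested. Counts in this section without a share of all genes are no result about the members in particular.

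Leaving out each library in turn gave 0 to 10 members for all pools against scramble, 0 to 17, 0 to 2, 2 to 27 and 0 to 22 for pools 1 to 4 against scramble, 24 to 31 among the pools, 0 to 2, 24 to 29, 23 to 32 and 0 to 2 for pools 1 to 4 against the others, and 8 to 20 for pool 3 against pools 1 and 4. In the pool 2 contrast the log2 difference of Ctsh ran from -0.063 (without pool 2 replicate 2) to 0.18 (without pool 2 replicate 1). No effect shared by replicate number was seen: the difference of replicate 1 from replicate 2 was correlated between groups, and the 10 correlations ran from -0.05 to 0.07. Values near 0 cannot show that same-numbered libraries were handled apart. With a replicate block, all pools against scramble called 6 members, and the counts of the other comparisons stayed within 1.5 times. TMM against RLE scaling moved the median of all genes by 0.00463 or less on the log2 scale. Of the alternatives for single named genes, 375 kept their side of the threshold, and their direction where the test gives one. In the rest, 19 lost the call, 7 gained it and 1 turned. Except for Ctsl, these genes were picked for the smallest p across the 4 pools in the same libraries. Keeping the call was therefore likely from the outset, and the 375 are no independent support. Among the alternatives for counts of members, 128 stayed within 1.5 times or at 0, and 54 moved further. With 2 libraries per pool, small differences can be missed.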
